A study of Mus musculus with 6 samples.

Results

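Glutathione synthesis and defence against ferroptosis were followed here through 10 genes, taken by name from a deposited table of 21719 genes: the cystine importer gene Slc7a11, the synthesis genes Gclc, Gclm and Gss, the reductase gene Gsr, the cyclotransferase gene Ggct, the peroxidase genes Gpx1 and Gpx4, and Aifm2 and Dpp9, which act beside glutathione. All 10 were in the table and all 10 passed the filter on low counts. The samples were 6 RNA-seq libraries of MPC5, a conditionally immortalised mouse podocyte line. The 3 libraries labelled Setdb2KO carry the genotype label KO, and the 3 labelled Setdb2WT carry the genotype label WT. All 6 libraries, of both labels, carry the treatment label high-glucose, whose dose and duration the labels do not give. Whether the knockout is 1 clone or a pool, and whether replicates are separate cultures, is not given either; p-values thus reflect the spread among these libraries alone, and that spread may be technical.

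Glutathione is a tripeptide of glutamate, cysteine and glycine, and its supply is limited by cysteine, which cells import as cystine, and by the ligase that joins glutamate to cysteine. Reduced glutathione feeds peroxidases, and the oxidised form is returned by a reductase that uses NADPH. Ferroptosis is an iron-dependent death driven by peroxidised membrane lipids, which Gpx4 removes with glutathione. Podocytes, the filter cells of the glomerulus, are exposed to oxidative stress in diabetic kidney disease, the setting named in the title of the series.

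Reads of the targeted gene were not fewer in the libraries labelled Setdb2KO. Setdb2 had 17, 15 and 25 reads in the libraries labelled Setdb2KO, against 12, 10 and 9 in those labelled Setdb2WT, a log2 fold change of 0.73 (SE 0.38) that missed the threshold of edgeR's quasi-likelihood (QL) test (adjusted p = 0.088). Smad3, which the title names as silenced by Setdb2, averaged 61.9 ± 2.9 CPM in the libraries labelled Setdb2KO and 162 ± 3.1 CPM in those labelled Setdb2WT (SD, n = 3 each; CPM are counts relative to the library size, scaled by TMM factors). The groups are therefore called by their labels, and rises and falls are given for Setdb2KO-labelled over Setdb2WT-labelled libraries. Libraries held 36461449 to 37129174 reads. Of 13509 genes tested, 11318 (83.8%) passed, so passing the test does not set a gene apart here. Podocyte markers were present in part: 13 of 15 passed the filter, of which 5 rose, 7 fell and 1 missed the threshold, with a summed level of 1674 to 1760 CPM in the libraries labelled Setdb2KO and 1878 to 1884 CPM in those labelled Setdb2WT. Npnt (19.0-fold) and Podxl (10.2-fold) fell while Cd2ap (1.53-fold) and Vegfa (2.08-fold) rose, and Wt1 and Lmx1b had 0 to 2 reads per library. Tubule markers (5 of 9 past the filter) summed to 433.1 to 455.1 CPM in the libraries labelled Setdb2KO and to 1090 to 1104 CPM in those labelled Setdb2WT. Of these, Aqp1 (9.05-fold), Cdh16 (1.71-fold) and Lrp2 (1.32-fold) fell, whereas Cubn rose 1.68-fold and Slc12a3 rose, with 16, 12 and 14 reads in the libraries labelled Setdb2KO and 0, 0 and 1 in those labelled Setdb2WT. Mesangial and fibroblast markers (5 of 8 past the filter, all 5 lower) summed to 21.32 to 24.41 CPM in Setdb2KO-labelled and 61.03 to 66.74 CPM in Setdb2WT-labelled libraries. Endothelial markers (3 of 7) summed to 6.308 to 7.568 CPM in Setdb2KO-labelled and 9.672 to 10.16 CPM in Setdb2WT-labelled libraries, where Ehd3 and Kdr fell and Esam rose 6.47-fold; of the untested ones Pecam1 had 18, 12 and 9 reads in Setdb2KO-labelled and 3, 3 and 2 in Setdb2WT-labelled libraries, and Tek, Cdh5 and Emcn had 0 to 3 in each library. Immune markers (3 of 4) summed to 11.08 to 13.77 CPM in Setdb2KO-labelled and 14.32 to 15.51 CPM in Setdb2WT-labelled libraries: Csf1r fell 1.86-fold, and Cd79a rose 4.40-fold, and Cd68 was 1.25-fold higher (adjusted p = 0.049, edgeR), a call lost without Setdb2KO replicate 1 (adjusted p = 0.141), Setdb2KO replicate 2 (0.131), Setdb2WT replicate 2 (0.161) or Setdb2WT replicate 3 (0.186). The untested Ptprc had 0 reads in each library labelled Setdb2KO and 4, 5 and 5 in those labelled Setdb2WT. Their part in the results below was not tested, and fewer cells of a type cannot be told apart from less RNA per cell in such libraries.

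Most of the 10 genes were lower in the libraries labelled Setdb2KO, with the cystine importer as the large exception. By edgeR's QL test, adjusted by Benjamini-Hochberg over all genes, 6 fell (Gclc, Gsr, Ggct, Gclm, Gpx1 and Gss), 2 rose (Slc7a11 and Dpp9), and Gpx4 and Aifm2 did not pass. The 8 that passed stand beside the 83.8% of all genes that did so. Falls made up 42.3% of all genes tested and rises 41.5%. At least 2-fold changes were found in 5 of the 10, 4 lower and 1 higher, against 32.6% of all genes tested (16.2% lower, 16.4% higher). The 3 libraries of each group did not overlap in 8 of the 10 genes, 6 lower and 2 higher, against 84.6% of all genes tested (42.7% lower, 42.0% higher). The median log2 fold change of the 10 genes was -0.61, against 0.005 over all genes tested. Summed over the 10 genes, the level was 799.5 to 816.3 CPM in the libraries labelled Setdb2KO and 1572 to 1586 CPM in those labelled Setdb2WT.

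**Figure D1:**
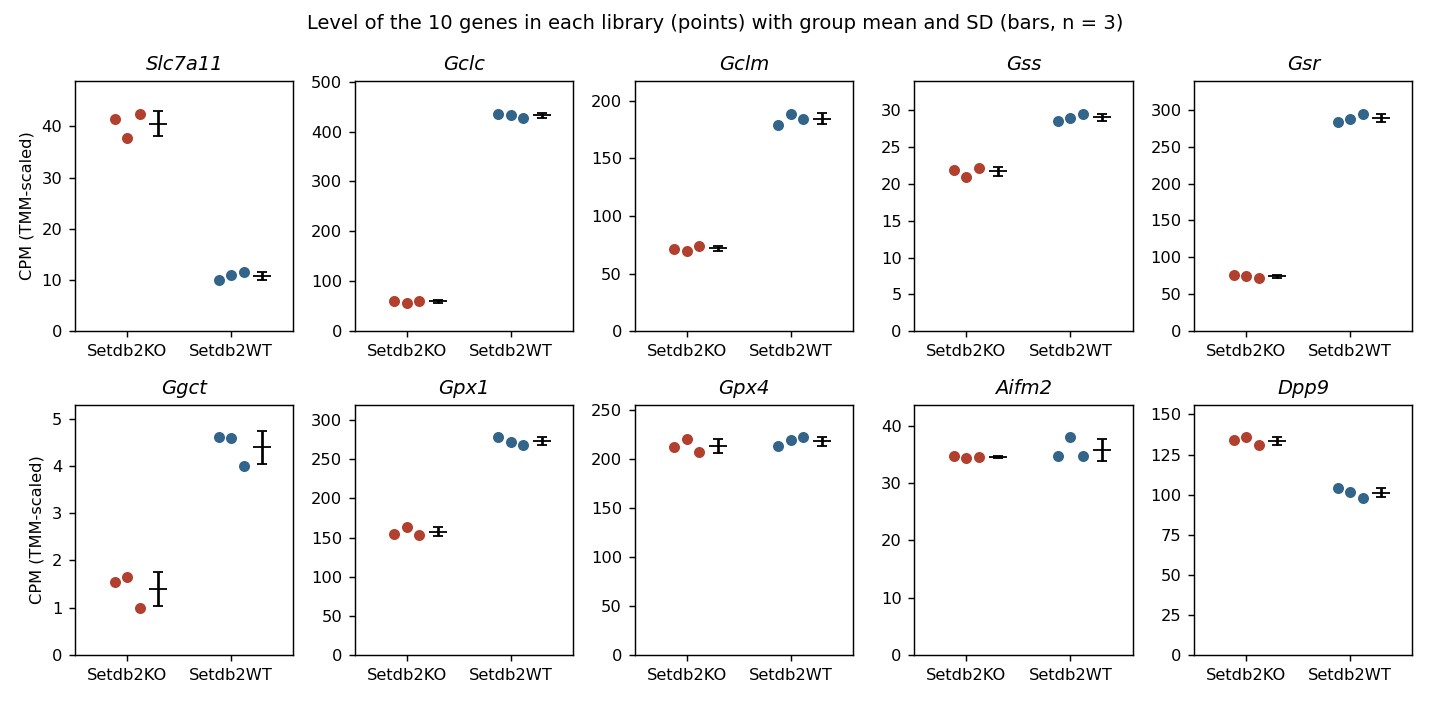
Level of each gene in CPM (vertical axis from 0, with its own scale in each panel) in the 3 libraries of each label (points), with the group mean and SD (bars, n = 3). Slc7a11 and Dpp9 lie higher and 6 genes lower in the Setdb2KO libraries with no overlap, while the libraries of Gpx4 and Aifm2 overlap.

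Slc7a11 encodes the light chain of the cystine-glutamate exchanger, which brings in the cystine from which cysteine for glutathione is made. It had 41.4, 37.7 and 42.5 CPM in the libraries labelled Setdb2KO, against 10.04, 10.9 and 11.6 CPM in those labelled Setdb2WT. Every Setdb2KO library lay above every Setdb2WT library. Its log2 fold change was 1.90 (SE 0.07, 3.73-fold; adjusted p = 6.2e-12, edgeR), higher than that of 92.7% of all genes tested. In mouse, Slc7a11 is a known target of ATF4, the transcription factor of the amino acid response, and of NRF2, which acts through antioxidant response elements. Upstream windows were therefore searched on both strands for TGATGNAA, the core of elements bound by ATF4 with C/EBP factors, for TGACNNNGC, the core of the antioxidant response element, and for the E-box CACGTG.

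RefSeq windows (GRCm38.p6) of 250 bases before to 50 after a transcript start were found for 8 of the 10 genes, and not for Gclc and Gsr. The 3 genes with a match are shown for their upstream 250 bases, 5′ to 3′ on the gene's strand, with capitals marking the matches: TGATGNAA in Slc7a11, which rose, and TGACNNNGC in Gclm and Ggct, which fell.
Slc7a11, chr3:50443614-50443863, minus strand: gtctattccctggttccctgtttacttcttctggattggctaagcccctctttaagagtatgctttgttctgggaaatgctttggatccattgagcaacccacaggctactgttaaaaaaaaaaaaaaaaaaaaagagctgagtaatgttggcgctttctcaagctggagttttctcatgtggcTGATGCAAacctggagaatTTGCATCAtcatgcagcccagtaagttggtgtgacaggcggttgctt
Gclm, chr3:122245307-122245556, plus strand: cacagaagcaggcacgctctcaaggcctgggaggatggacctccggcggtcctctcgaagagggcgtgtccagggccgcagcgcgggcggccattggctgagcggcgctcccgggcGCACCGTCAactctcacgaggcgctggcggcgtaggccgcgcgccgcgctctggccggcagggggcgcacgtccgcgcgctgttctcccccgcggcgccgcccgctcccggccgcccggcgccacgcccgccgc
Ggct, chr6:54992868-54993117, minus strand: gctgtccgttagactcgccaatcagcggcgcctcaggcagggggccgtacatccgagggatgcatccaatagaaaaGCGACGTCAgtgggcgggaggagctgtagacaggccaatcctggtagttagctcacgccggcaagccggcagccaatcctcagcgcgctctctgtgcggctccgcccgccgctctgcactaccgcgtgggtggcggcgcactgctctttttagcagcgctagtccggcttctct
The Slc7a11 window held TGATGNAA at 2 places, 66 and 47 bases before the start and on opposite strands, both reading TGATGCAA. A match of TGATGNAA was present in 3.97% of all 32851 windows, and 2 or more were present in 23 windows (0.07%). TGACNNNGC was present in 12.4% of windows. The Gclm match lay 134 bases before the start, and Ggct had a match 174 bases before the start and another just after it, outside the stretch shown. CACGTG, present in 7.15% of windows, was in none of the windows of the 10 genes, and Gss, Gpx1, Gpx4, Aifm2 and Dpp9 had no match to any of the 3 motifs. These letters do not show that a factor binds there, and the motifs do not overlap one another in the windows shown.

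The ligase that starts glutathione synthesis is a pair of subunits, and both transcripts fell. Gclc encodes the catalytic subunit. It had 61.4, 57.0 and 60.8 CPM in the libraries labelled Setdb2KO, against 436, 434 and 428 CPM in those labelled Setdb2WT. This was the largest fold change among the 10 genes (log2 fold change -2.86, SE 0.04, 7.24-fold lower; adjusted p = 2.5e-16, edgeR), and 2.04% of all genes tested had a lower log2 fold change. Gclm encodes the modifier subunit, which raises the affinity of the ligase for glutamate and eases its inhibition by glutathione. It had 71.7, 69.7 and 74.3 CPM in the libraries labelled Setdb2KO, against 179, 189 and 185 CPM in those labelled Setdb2WT. The fall was smaller (log2 fold change -1.36, SE 0.04, 2.56-fold lower; adjusted p = 2.3e-13, edgeR).

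The fitted fall of Gclc was larger than that of Gclm, and their read ratio had no overlap between the groups. The number of Gclc reads per Gclm read within a library, which no library scaling can move, was 0.857, 0.818 and 0.819 in the libraries labelled Setdb2KO, against 2.43, 2.30 and 2.32 in those labelled Setdb2WT. The ratio was 2.82-fold lower in the libraries labelled Setdb2KO. The exact two-sided permutation test gave p = 0.1, the smallest p that 3 against 3 libraries allow. Per kilobase of annotated exon (GENCODE M21, the union of all annotated exons), Gclc stood at 15.9 ± 0.64 and Gclm at 11.4 ± 0.36 CPM per kilobase in the libraries labelled Setdb2KO, against 115 ± 1.2 and 29.3 ± 0.76 in those labelled Setdb2WT (SD, n = 3 each). Gclc thus stayed above Gclm per length in both groups. This order rests on the exon lengths used, since in reads Gclc lay below Gclm in the libraries labelled Setdb2KO.

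Gss encodes glutathione synthetase, which adds glycine in the last step. It had 21.9, 20.9 and 22.2 CPM in the libraries labelled Setdb2KO, against 28.6, 28.9 and 29.5 CPM in those labelled Setdb2WT. The groups did not overlap, but the change was small (log2 fold change -0.42, SE 0.06, 1.34-fold lower; adjusted p = 6.5e-06, edgeR). Antisense genes share 6.51% (Gssos2), 6.68% (Acss2) and 5.44% (Gssos1) of the exon length of Gss. Since no strand setting is given, their reads cannot be told apart from those of Gss there. In Gclm, 4.71% and 3.88% of the exon length is shared with the non-coding genes Gm17494 and Gm6061, and in Aifm2 5.65% is shared with the antisense gene H2afy2. Gssos2 itself had 9 reads over the libraries labelled Setdb2KO and 141 over those labelled Setdb2WT. Acss2 had 579 reads over the libraries labelled Setdb2KO and 2508 over those labelled Setdb2WT, and Gssos1 has no deposited counts. The part of such reads in the fall of Gss was not tested.

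Gsr, of glutathione recycling, and Ggct, of the gamma-glutamyl cycle, were lower as well. Gsr encodes glutathione reductase, which restores the oxidised form with NADPH. It had 76.0, 74.4 and 72.6 CPM in the libraries labelled Setdb2KO, against 284, 287 and 295 CPM in those labelled Setdb2WT. The groups were far apart. Its log2 fold change was -1.96 (SE 0.03, 3.88-fold lower; adjusted p = 2.7e-15, edgeR), the next largest fall after Gclc. Ggct encodes a cyclotransferase that releases oxoproline from gamma-glutamyl amino acids. It had the fewest reads of the 10 genes, with 60, 64 and 38 reads in the libraries labelled Setdb2KO, against 161, 162 and 139 in those labelled Setdb2WT. In CPM the values were 1.55, 1.65 and 0.990 in the libraries labelled Setdb2KO and 4.61, 4.60 and 4.00 in those labelled Setdb2WT. The log2 fold change of -1.65 (SE 0.19, 3.14-fold lower; adjusted p = 1.9e-06, edgeR) had the widest interval of the 10 genes, -2.07 to -1.24. Its coefficient of variation was 25.5% in the libraries labelled Setdb2KO and 7.93% in those labelled Setdb2WT, while the other 9 genes stayed between 0.534% and 6.13% in the libraries labelled Setdb2KO and between 1.01% and 7.26% in those labelled Setdb2WT.

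Of the peroxidase genes, Gpx1 fell and Gpx4 did not pass. Gpx1 encodes the abundant glutathione peroxidase that removes hydrogen peroxide. It had 155, 164 and 154 CPM in the libraries labelled Setdb2KO, against 278, 273 and 268 CPM in those labelled Setdb2WT, and fell 1.73-fold (log2 fold change -0.79, SE 0.03; adjusted p = 2.9e-11, edgeR). Gpx4 encodes the peroxidase that reduces lipid hydroperoxides within membranes and is the central guard against ferroptosis. It had 212, 221 and 207 CPM in the libraries labelled Setdb2KO, against 213, 219 and 222 CPM in those labelled Setdb2WT, and the groups overlapped. Its log2 fold change was -0.03 (95% interval -0.11 to 0.04; adjusted p = 0.38, edgeR). Under total-count scaling, which lifts the median log2 fold change of all genes tested to 0.159, the Gpx4 value turned to 0.12 and passed (adjusted p = 0.004), still below that median. Processed copies of Gpx4 exist in the mouse genome, so reads shared with them leave its level uncertain.

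The ratio of Gpx4 to Gpx1 reads was 1.37, 1.35 and 1.35 in the libraries labelled Setdb2KO, against 0.767, 0.804 and 0.829 in those labelled Setdb2WT. It was 1.69-fold higher in the libraries labelled Setdb2KO with no overlap (exact permutation p = 0.1, the smallest possible). Both genes encode selenoproteins, whose active site holds selenocysteine. Per kilobase of exon, Gpx4 was the most abundant of the 10 in the libraries labelled Setdb2KO, at 124 ± 4.0 CPM per kilobase against 109 ± 3.8 for Gpx1. In the libraries labelled Setdb2WT, Gpx1 led at 189 ± 3.5, followed by Gpx4 at 127 ± 2.6 and Gclc (SD, n = 3 each). At the low end, Ggct and Slc7a11 had the smallest values per length in both groups, and Slc7a11 has the longest exon union of the 10, 13922 bases.

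**Figure D2:**
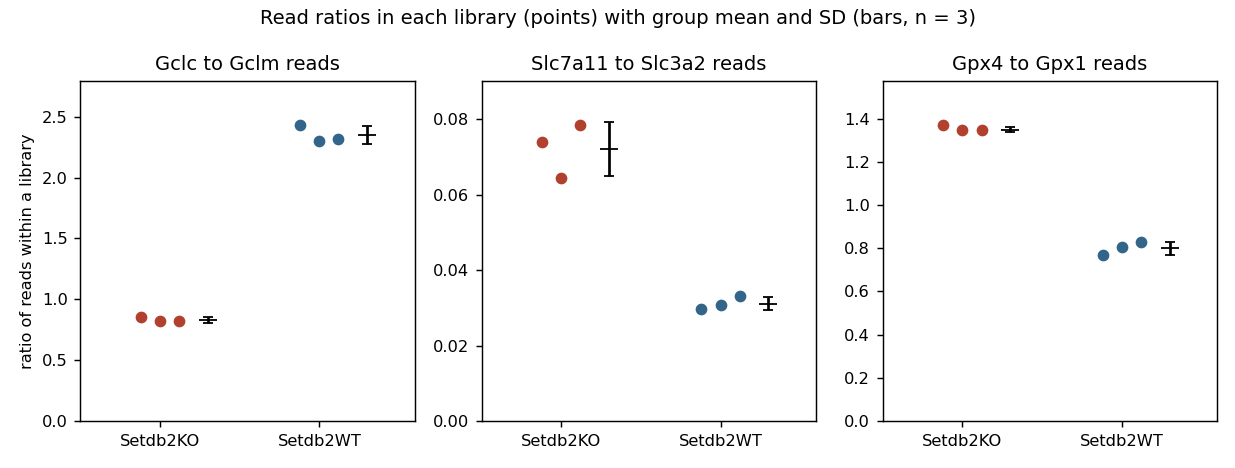
Ratio of reads of one gene to those of another within each library (points; vertical axes start at 0) with the group mean and SD (bars, n = 3). The Gclc to Gclm ratio is lower and the Slc7a11 to Slc3a2 and Gpx4 to Gpx1 ratios are higher in the 3 Setdb2KO libraries, with no overlap.

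Of the genes that act beside glutathione, Aifm2 did not pass and Dpp9 rose by less than 2-fold. Aifm2 encodes FSP1, which regenerates reduced coenzyme Q at membranes and so guards against ferroptosis without glutathione. It had 34.7, 34.4 and 34.5 CPM in the libraries labelled Setdb2KO, against 34.7, 38.0 and 34.6 CPM in those labelled Setdb2WT, and the groups overlapped. The log2 fold change was -0.05 (95% interval -0.16 to 0.06; adjusted p = 0.37, edgeR), and it turned to 0.10 without passing under total-count scaling (adjusted p = 0.082). Dpp9 encodes a cytosolic dipeptidyl peptidase that restrains the NLRP1 inflammasome and is reported in human cancer cells to bind KEAP1, the inhibitor of NRF2. It had 134, 136 and 131 CPM in the libraries labelled Setdb2KO, against 104, 102 and 98.1 CPM in those labelled Setdb2WT. The groups did not overlap, and Dpp9 was 1.32-fold higher (log2 fold change 0.40, SE 0.04; adjusted p = 8.8e-08, edgeR).

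**Figure D3:**
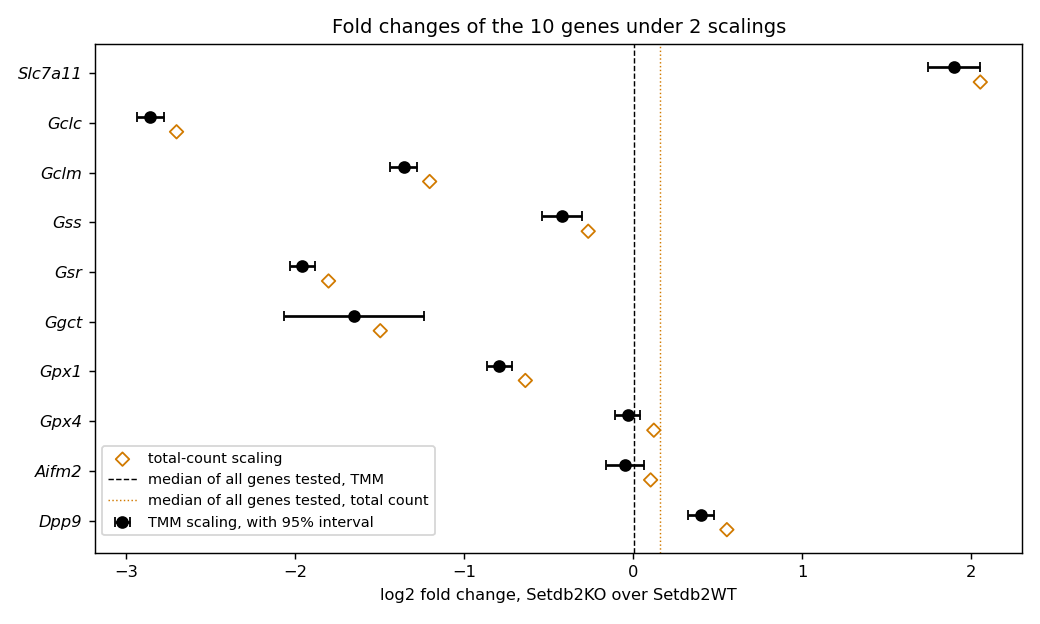
Log2 fold change (horizontal axis, Setdb2KO over Setdb2WT) of the 10 genes with 95% intervals under TMM scaling (filled circles) and under total-count scaling (open diamonds), with the median of all genes tested under each (vertical lines at 0.005 and 0.159). Gpx4 and Aifm2 lie close to those medians, and the other 8 genes keep their side of 0 under both scalings.

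Around the importer, its partner chain Slc3a2 and the glutathione-cleaving Chac1 rose, while the exporter gene Abcc1 fell. Of 21 tested genes of glutathione supply, breakdown and export, 7 rose, 12 fell and 2 missed the threshold (median log2 fold change -0.40). Among all genes tested, 41.5% rose and 42.3% fell, and 16.4% rose and 16.2% fell at least 2-fold. Slc3a2, the heavy chain that holds Slc7a11 at the membrane, rose 1.61-fold, with 563 ± 22 CPM in the libraries labelled Setdb2KO and 349 ± 8.6 CPM in those labelled Setdb2WT (SD, n = 3 each). Slc3a2 also serves other amino acid transporters, and Slc7a11 reads per Slc3a2 read were 0.0739, 0.0644 and 0.0784 in the libraries labelled Setdb2KO, against 0.0296, 0.0307 and 0.0331 in those labelled Setdb2WT. That ratio was 2.32-fold higher without overlap (exact permutation p = 0.1, the smallest possible).

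The at least 2-fold rises of this list were those of Chac1, Oplah and Cdo1. Chac1, which cleaves glutathione in the cytosol and is induced by ATF4 and CHOP, had 110, 114 and 113 CPM in the libraries labelled Setdb2KO, against 19.7, 23.0 and 25.6 CPM in those labelled Setdb2WT, a 4.93-fold rise (adjusted p = 5.2e-13, edgeR). Its constitutive relative Chac2 fell 1.34-fold. Oplah, which opens the oxoproline that such cleavage releases, rose 9.09-fold to 17.1 ± 0.85 CPM in the libraries labelled Setdb2KO, against 1.87 ± 0.49 CPM in those labelled Setdb2WT. Cdo1, which oxidises cysteine, rose 7.16-fold at a low level (2.07 ± 0.45 CPM in the libraries labelled Setdb2KO and 0.285 ± 0.073 CPM in those labelled Setdb2WT).

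The at least 2-fold falls of this list were those of Abcc1, Ahcy, Mat2a, Ggt6 and Cbs. Abcc1, an exporter of glutathione and its conjugates, fell 3.15-fold. Mat2a and Ahcy, which carry methionine towards homocysteine, fell 2.95-fold and 2.97-fold. Ggt6, of the gamma-glutamyl transferase family, fell 2.16-fold at a low level, with 0.458 ± 0.032 CPM in the libraries labelled Setdb2KO and 0.991 ± 0.16 CPM in those labelled Setdb2WT. Cbs, which joins homocysteine to serine on the way to cysteine, had 1 read over the libraries labelled Setdb2KO and 203 over those labelled Setdb2WT, a ratio of Setdb2WT over Setdb2KO of 224 whose exact 95% interval, for counting error alone, ran from 39.7 to 8880. Cth, which releases cysteine in the next step, rose 1.39-fold. Ggt7, of the same family as Ggt6, was 1.2-fold lower (adjusted p = 0.016, edgeR), and this call was lost without Setdb2KO replicate 1 (adjusted p = 0.059), without Setdb2WT replicate 2 (adjusted p = 0.065) and under total-count scaling (adjusted p = 0.27).

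Enzymes that use glutathione were mostly lower. Of 15 tested genes of this kind, 13 fell, 1 rose and 1 missed the threshold (median log2 fold change -0.81). Among all genes tested, 42.3% fell and 41.5% rose. Besides peroxidases, reductases and glutaredoxins, the list held the glyoxalase genes Glo1 and Hagh and the hydrolase gene Esd. It also held the transferase family genes Gsto1, Mgst1, Mgst2 and Mgst3. Glrx, the cytosolic glutaredoxin, fell 7.18-fold to 1.62 ± 0.21 CPM in the libraries labelled Setdb2KO, against 11.7 ± 0.43 CPM in those labelled Setdb2WT. Prdx6, a peroxiredoxin that takes its electrons from glutathione, fell 3.20-fold. The gene that rose was Gpx8, a peroxidase of the endoplasmic reticulum, with 60.1 ± 2.2 CPM in the libraries labelled Setdb2KO and 48.7 ± 1.1 CPM in those labelled Setdb2WT (SD, n = 3 each).

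The genes that supply NADPH, the cofactor of Gsr, were mostly lower. Of 18 tested, 14 fell, 3 rose and 1 missed the threshold (median log2 fold change -1.11), and 11 of the falls were at least 2-fold. Among all genes tested, 42.3% fell and 41.5% rose, and 16.2% fell at least 2-fold. G6pdx, the entry enzyme of the pentose phosphate pathway, had 42.0 ± 1.4 CPM in the libraries labelled Setdb2KO and 243 ± 0.34 CPM in those labelled Setdb2WT, and the cytosolic dehydrogenase gene Idh1 fell 6.86-fold. Me1, the cytosolic malic enzyme, fell 1.33-fold. The genes that rose were the mitochondrial folate enzymes Aldh1l2 (3.34-fold) and Mthfd2 (1.09-fold) and the mitochondrial NAD kinase Nadk2 (1.09-fold). Other mitochondrial folate enzymes of the list fell, Mthfd1l 3.76-fold and Mthfd2l 2.06-fold. The call of Nadk2 was lost without Setdb2WT replicate 1 (adjusted p = 0.0966, edgeR) and without Setdb2WT replicate 3 (0.051).

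Of 12 tested genes of selenoprotein synthesis, on which Gpx1 and Gpx4 depend, 7 fell, 2 rose and 3 missed the threshold (median log2 fold change -0.52), where 42.3% of all genes tested fell and 41.5% rose. Under total-count scaling 7 were lower and 5 higher. Lrp8, a receptor that takes up the selenium carrier selenoprotein P, was the single gene with an at least 2-fold fall, at 5.56 ± 0.22 CPM in the libraries labelled Setdb2KO and 83.4 ± 4.8 CPM in those labelled Setdb2WT. Sephs2, which makes the selenium donor, fell 1.45-fold, and Secisbp2, which recodes UGA as selenocysteine, fell 1.41-fold. Secisbp2l and Scly, which frees selenium from selenocysteine, rose 1.45-fold and 1.36-fold.

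Other suppressors of ferroptosis moved in both directions, and falls were more frequent. Of 35 tested, 22 fell, 9 rose and 4 missed the threshold (median log2 fold change -0.57). At least 2-fold falls numbered 12 and rises 2. Among all genes tested, 42.3% fell and 41.5% rose, and 16.2% fell and 16.4% rose at least 2-fold. Nqo1, a quinone reductase and classic NRF2 target, fell 7.11-fold, with 7.39 ± 0.80 CPM in the libraries labelled Setdb2KO and 52.6 ± 2.8 CPM in those labelled Setdb2WT. Coq2, of coenzyme Q synthesis, fell 2.39-fold, and Dhodh, which reduces coenzyme Q in mitochondria, fell 1.28-fold. The at least 2-fold rises were those of Gch1, the entry enzyme of tetrahydrobiopterin synthesis, which rose 5.50-fold to 8.02 ± 0.99 CPM in the libraries labelled Setdb2KO, against 1.45 ± 0.64 CPM in those labelled Setdb2WT, and of Akr1b3, aldose reductase, which rose 2.59-fold.

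Genes that promote ferroptosis were split. Of 26 tested, 10 rose, 14 fell and 2 missed the threshold (median log2 fold change -0.30). At least 2-fold rises numbered 2 and falls 6. Among all genes tested, 41.5% rose and 42.3% fell, and 16.4% rose and 16.2% fell at least 2-fold. Acsl4 and Lpcat3, which build polyunsaturated phospholipids, fell 1.52-fold and 2.04-fold, and Tfrc, the transferrin receptor, fell 1.56-fold. Ncoa4, which delivers ferritin for breakdown, and Hmox1, which frees iron from haem, rose 1.23-fold and 1.30-fold. The at least 2-fold rises were those of the lipoxygenase genes Aloxe3, with 8.64 ± 0.32 CPM in the libraries labelled Setdb2KO and 0.134 ± 0.067 CPM in those labelled Setdb2WT, and Alox15, with 5.62 ± 0.74 CPM in the libraries labelled Setdb2KO and 0.828 ± 0.32 CPM in those labelled Setdb2WT (SD, n = 3 each). Besides Lpcat3, the at least 2-fold falls were those of Fads2 (8.60-fold), Dhcr7 (5.31-fold), Fads1 (2.76-fold), Sat2 (2.52-fold) and Far1 (2.03-fold). Sat2 lay at a low level (0.811 ± 0.40 CPM in Setdb2KO-labelled and 2.05 ± 0.12 CPM in Setdb2WT-labelled libraries), and its relative Sat1 rose 1.76-fold. Summed over the list, the level was 2664 to 2730 CPM in the libraries labelled Setdb2KO and 4319 to 4340 CPM in those labelled Setdb2WT. This sum leans on Fads2 (94.1 CPM in Setdb2KO-labelled and 810 CPM in Setdb2WT-labelled libraries) and Fads1 (240 and 661 CPM), and does not show a fall across the list.

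**Figure D4:**
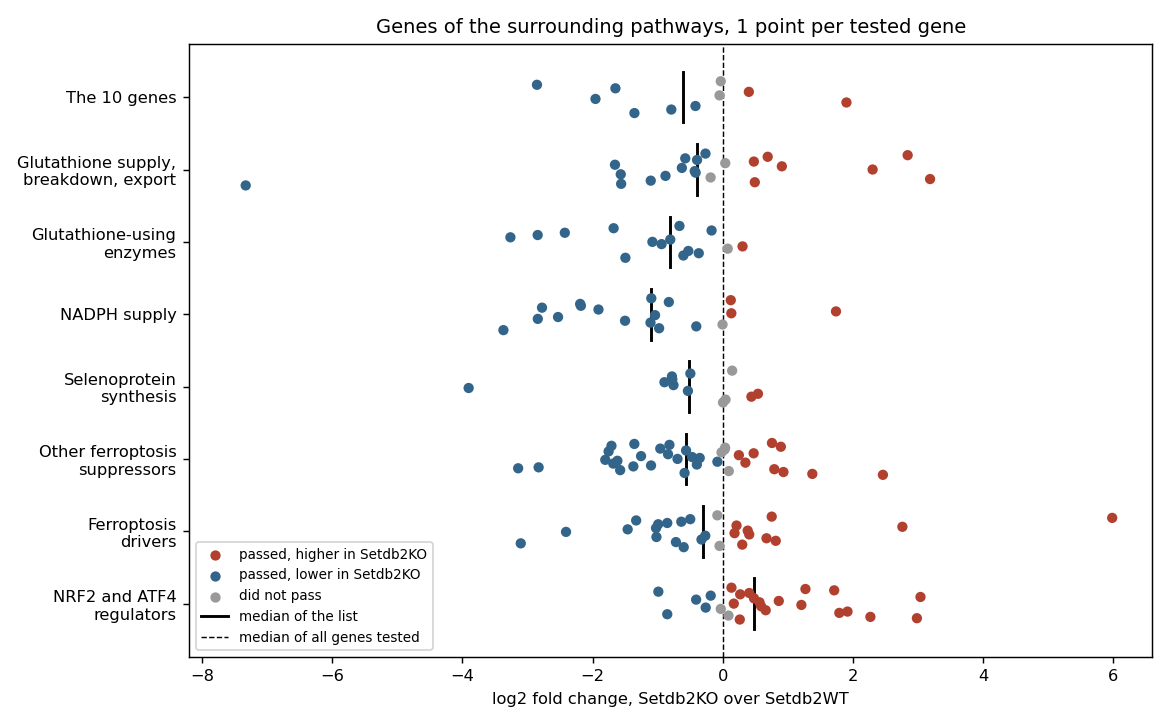
Log2 fold change (horizontal axis, Setdb2KO over Setdb2WT) of each tested gene of the 10 genes and of 7 surrounding lists (1 point per gene), coloured by call, with the median of each list (vertical bar) and of all genes tested (dashed line). The NRF2 and ATF4 regulators are the list with a median above that line (0.48), and NADPH supply has the lowest median (-1.11).

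Genes listed as NRF2 and ATF4 regulators were mostly higher. The list pools activators with inhibitors such as Keap1 and Bach1, so its counts give no direction of NRF2 or ATF4 activity. Of 25 tested, Nfe2l2 and Atf4 themselves among them, 18 rose, 5 fell and 2 missed the threshold (median log2 fold change 0.48). Among all genes tested, 41.5% rose and 42.3% fell, and 16.4% rose at least 2-fold. In this list 8 of the rises were at least 2-fold. They were Trib3 (8.20-fold), Ddit3 (7.90-fold), Maff (4.81-fold), Atf3 (3.77-fold), Sqstm1 (3.46-fold), Cebpg (3.27-fold), Mafk (2.41-fold) and Cebpb (2.31-fold). Nfe2l2, which encodes NRF2, rose 1.5-fold, with 149, 130 and 157 CPM in the libraries labelled Setdb2KO, against 96.5, 98.7 and 94.6 CPM in those labelled Setdb2WT. Keap1, which targets NRF2 for degradation, fell 1.81-fold, and Bach1, a repressor at antioxidant response elements, rose 1.32-fold; Keap1 and Bach1 are also counted among the ferroptosis drivers. Atf4 rose 1.2-fold, with 601 ± 15 CPM in the libraries labelled Setdb2KO and 502 ± 1.3 CPM in those labelled Setdb2WT (SD, n = 3 each). Besides Keap1, the genes that fell were the kinases Eif2ak4 (1.99-fold) and Eif2ak2 (1.33-fold), Rbx1 (1.2-fold) and Btrc (1.14-fold). Of the same kinase family, Eif2ak3 rose 1.48-fold and Eif2ak1 missed the threshold. Rbx1 is a part of the ubiquitin ligase that Keap1 joins. Btrc is a substrate receptor for NRF2, and its call was lost under total-count scaling (adjusted p = 0.571, edgeR). RNA levels of Nfe2l2 and Atf4 do not measure their proteins, which are set largely by degradation and translation.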

How the data were processed

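RNA of 6 MPC5 libraries was isolated with TRIzol and sequenced from VAHTS Universal V6 libraries, per the labels' protocols. The authors deposited unnormalised read counts for each gene, with 1 column a library. The tools named are fastp, HISAT and HTSeq, and the build is GRCm39, per the submitters' processing notes. Versions, annotation and strand setting are not stated there, so overlapping and antisense genes cannot be told apart.

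Counts were tested with edgeR 4.0.16 in R 4.3.3 (quasi-likelihood F test, TMM, filterByExpr at its default count of 10, and no term but genotype), with Benjamini-Hochberg adjustment over 13509 genes and a threshold of 0.05. Fold changes come from this model (prior count 0.125), and SE is that of the log2 fold change. CPM uses TMM-scaled library sizes. Libraries of 36461449 to 37129174 reads leave wide counting error only for genes with few reads. No pair of libraries of a group agreed within sampling noise (chi-square per degree of freedom 4.22 to 14.8 in the libraries labelled Setdb2KO and 2.51 to 2.65 in those labelled Setdb2WT). In simulated counts with 50 changed genes per fold, among 13405 genes tested, 32 were recovered at 1.2-fold, 49 at 1.5-fold and 50 at 2-fold and 4-fold, with 7 false calls. There the other genes did not change, rises and falls were balanced, and none of the changed genes had few reads. All genes had the same fixed dispersion. In the data 83.8% of genes passed, so the simulation does not measure false calls or errors of scaling there.

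The 10 genes and all lists were chosen with earlier results of these data known. List genes were named for their role, at a mean CPM of at least 1, or where they make up a count of 5 or fewer. Cbs, Gssos2, Acss2, the other overlapping genes and the cell type markers fall below or outside this. They were named after their values were seen. So were the NRF2 and ATF4 list genes with at least 2-fold rises and, but for Lpcat3, the ferroptosis drivers with at least 2-fold falls. The glyoxalase, hydrolase and transferase genes were named late as well. Promoter windows are RefSeq's on GRCm38.p6; exon lengths are GENCODE M21's. A planned comparison of protein sequences was not made. Alternatives were DESeq2's size factors and Wald test (DESeq2 1.42.0), upper-quartile and total-count scaling, limma-voom (limma 3.58.1), other filters, a replicate block and leaving out each library.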

Additional observations from a re-analysis of the deposited data

How the results depend on the processing

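Slc7a11, Gclc, Gclm, Gss, Gsr, Ggct, Gpx1 and Dpp9 kept their direction and passed under all 14 alternatives. The range of their log2 fold changes was 1.83 to 2.05 for Slc7a11, -2.88 to -2.70 for Gclc, -1.39 to -1.20 for Gclm and 0.36 to 0.55 for Dpp9. Total-count scaling moved the median log2 fold change of all genes tested by 0.154; under it Gpx4 turned to 0.122 and passed (adjusted p = 0.004), Aifm2 turned to 0.103 without passing, and the selenoprotein list had 5 higher genes in place of 2. The cause was not tested. Samples shared only a number between groups (correlation of same-numbered deviations -0.037 to 0.00086). With the replicate block 11190 genes passed in place of 11318 and, of the 10 genes, 2 were higher and 6 lower, as without it; it changed none of the calls of the 74 genes it was run on. Among the 10 genes, Ggct is limited most by depth, with 38 to 162 reads per library. Setdb2 passed under total-count scaling, as higher in the libraries labelled Setdb2KO (log2 fold change 0.885, adjusted p = 0.043, edgeR).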
